A study of Mus musculus with 5 samples.

Results

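The genes described here build and excite the skeletal muscle fibre: sarcomeric myosins, troponins, myomesins, myosin-binding proteins, alpha-actinins, calsequestrins, and a set of single genes from Acta1 to Cacna1s. They were taken by their symbols. A probe set was a member where its only platform symbol was Myh1 to Myh8, Myl1 to Myl4, a troponin (Tnnc, Tnni or Tnnt, 1 to 3), any Myom or Casq gene, Mybpc1, Mybpc2, Actn2, Actn3, Mylpf, Acta1, Ckm, Myog, Ttn, Neb, Ryr1, Atp2a1, Pvalb, Chrna1 or Cacna1s. This gave 36 probe sets of 36 genes, out of 10361 probe sets on the arrays as analysed here. Myh6, Myl3 and Tnni3 also fit the symbols and were not analysed here.

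The tissue was the sciatic nerve of mouse pups on the C57Bl6N background at postnatal day 2. Heterozygous Ebf2 parents were crossed, and pups were genotyped, and nerves of wild-type (Ebf2+/+, WT) and Ebf2-/- (KO) pups were put into separate pools of 12 nerves. There were 3 WT pools, numbered 1, 9 and 11, and 2 KO pools, numbered 2 and 4, with 1 whole-transcript Affymetrix array for each. The product of Ebf2 is a DNA-binding protein of the EBF family. The labels say neither which part of the gene is missing nor how many animals, litters or dissections stand behind a pool. The labels name nerve as the tissue and mention no muscle.

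In a muscle fibre, myosin heads of the thick filament pull on actin of the thin filament when calcium binds the troponin complex. The membrane signal reaches the sarcomere through the voltage sensor Cacna1s, the release channel Ryr1, the store protein calsequestrin and the calcium pump Atp2a1. Most sarcomere proteins have isoforms. Rodent fibres start with embryonic myosin (Myh3), pass through neonatal myosin (Myh8) around birth, and then take on the adult fast myosins (Myh1, Myh2, Myh4) or keep the slow one (Myh7). Limb muscles lie against the sciatic nerve along much of its course. All levels below are deposited log2 values, in which 1 unit is a doubling, and values of different probe sets are not set against each other, because each probe set has its own brightness.

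The muscle genes varied together across the 5 pools, and WT pool 1 stood lowest. Of the 36 members, 34 had their lowest value in WT pool 1, as had 17.9% of all probe sets. WT pools 9 and 11 were the highest pair in 29 members, against 16.2% of all probe sets. In 28 members both KO pools lay between WT pool 1 on one side and WT pools 9 and 11 on the other, an order found in 4.61% of the table. The mean level of the members was 9.26 in WT pool 1, 10.57 in WT pool 9 and 10.41 in WT pool 11, against 9.69 in KO pool 2 and 9.93 in KO pool 4. The WT pools thus bracketed the KO pools. The same means over all probe sets ran from 8.85 to 8.91, but normalisation between arrays holds such means close together.

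**Figure D1:**
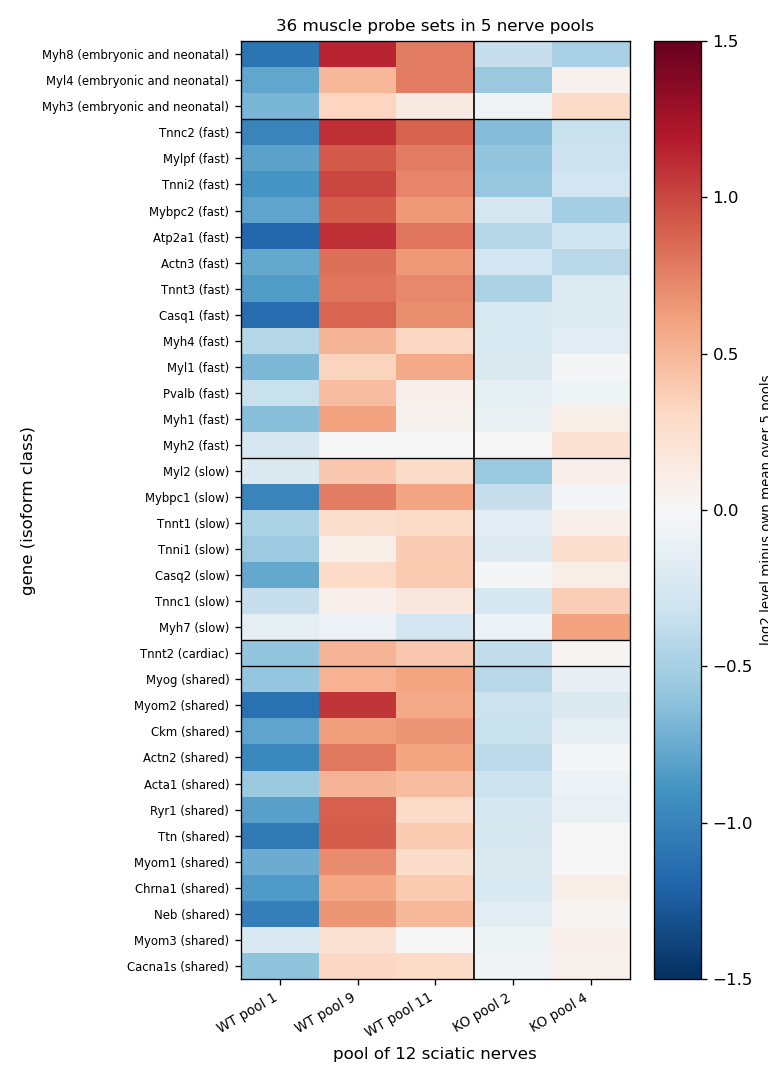
Each row is a member probe set and each column a pool of 12 nerves, and the colour gives the log2 level minus that probe set's own mean over the 5 pools. WT pool 1 is the lowest (blue) column for 34 of 36 members, WT pools 9 and 11 are the highest pair for 29, and KO pools 2 and 4 lie between.

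The size of the spread was large for this table. From lowest to highest pool the members ranged over 0.46 to 2.28, with a median of 1.44, against a median of 0.44 for all probe sets. In 23 members both WT pool 9 and WT pool 11 were at least 2-fold above WT pool 1, as were 94 probe sets of the table (0.907%). The 23 members made up 24.5% of those 94 probe sets, and other muscle genes listed further on another 23.4%. Keratinocyte genes, also listed further on, made up 7.45%, and 44.7% were on none of these lists. KO pool 4 was above KO pool 2 in 33 members, against 49.3% of all probe sets, by a median of 0.22. The array of KO pool 4 had the lowest median over all probe sets (8.93, against 9.04 to 9.11 on the others).

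No member passed the test between the genotypes. With limma and Benjamini-Hochberg adjustment over all probe sets, 0 of 36 members had an adjusted p below 0.05, against 0.676% of all probe sets, and the lowest adjusted p was 0.287 (Mylpf). At unadjusted p below 0.05 there were 4 members, against 14.3% of the table. Of these 3 were lower in KO (Mylpf, Tnnc2 and Tnni2, against 7.17%) and 1 was higher (Myh7, against 7.14%). In 0 of 36 members were both KO pools below every WT pool, or both above every WT pool. Among all probe sets, 13.3% had both KO pools below every WT pool and 17.5% had both above. In the mean, 28 members were lower in KO (50.2% of the table) and 8 higher. The KO mean was at least 1.5-fold lower in 7 members (2.69% of the table) and at least 1.5-fold higher in 0 (2.25%). The median log2 fold change, KO minus WT, was -0.31 over the members and -0.002 over all probe sets.

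The direction of this median depended on which WT pools served as the reference. With WT pool 1 as the only WT pool it was 0.54, and 35 of 36 members were higher in KO (50.8% of the table), 15 of them by at least 1.5-fold (0.956%), while 0 passed adjustment (0.0% of the table). Myl2 was the exception, at -0.02. Without WT pool 1 the median was -0.66, and 25 members reached unadjusted p below 0.05 (15.9% of the table), but 0 passed adjustment (0.0579%). Without WT pool 9 it was 0.01. For any of these differences between pools, the number of muscle cells and the RNA per muscle cell cannot be told apart in pooled tissue.

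The myosin heavy chains showed the range of patterns among the members. Of the embryonic and neonatal forms, the neonatal Myh8 had one of the widest spreads. In WT pools 1, 9 and 11 Myh8 stood at 10.51, 12.75 and 12.38, and in KO pools 2 and 4 at 11.26 and 11.12. WT pool 9 was thus 4.73-fold above WT pool 1, and both KO pools were closer to WT pool 1. The difference between the genotypes was -0.69 (SE 0.38, limma adjusted p = 0.417), with a WT mean of 11.88 ± 1.20 (SD, n = 3) and a KO mean of 11.19 ± 0.10 (SD, n = 2). The embryonic Myh3 read 9.86, 10.86 and 10.67 in the WT pools and 10.48 and 10.83 in the KO pools. Only WT pool 1 stood apart in Myh3, and KO pool 4 was 0.03 below WT pool 9, where in Myh8 it was 1.63 below.

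The adult fast myosins had smaller spreads than Myh8. Myh2 and Myh4 had means below 7.66, the 25th percentile of all probe set means. Whether low signal narrowed their spreads was not tested. Myh1, the myosin of type 2X fibres, read 7.06, 8.31 and 7.75 in the WT pools and 7.59 and 7.79 in the KO pools. Myh4, the myosin of type 2B fibres, read 7.19, 8.12 and 7.93 in WT and 7.39 and 7.45 in KO. In Myh4 both KO pools lay below WT pools 9 and 11, while in Myh1 KO pool 4 reached WT pool 11. Myh2, the myosin of type 2A fibres, read 7.21, 7.47 and 7.47 in WT and 7.47 and 7.69 in KO, with the same value on 3 arrays. Their log2 fold changes were -0.02 for Myh1 (SE 0.24), -0.33 for Myh4 (SE 0.22) and 0.19 for Myh2 (SE 0.17). The sign for Myh1 turned under median centring (0.04) and quantile normalisation (0.03).

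Slow myosin departed from the common pattern. Myh7 is the heavy chain of slow fibres and of the heart ventricle. In WT pools 1, 9 and 11 it stood at 9.07, 9.12 and 8.92, and in KO pools 2 and 4 at 9.12 and 9.81. The 3 WT pools and KO pool 2 lay between 8.92 and 9.12, and only KO pool 4 was higher. The log2 fold change was 0.43 (SE 0.19, limma adjusted p = 0.316, unadjusted p = 0.0388), the largest positive one among the members, and the KO pools differed by 0.69. Without KO pool 4 it was 0.08. Myosin heavy chain genes are close in sequence, so signal shared between their probe sets was not tested.

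**Figure D2:**
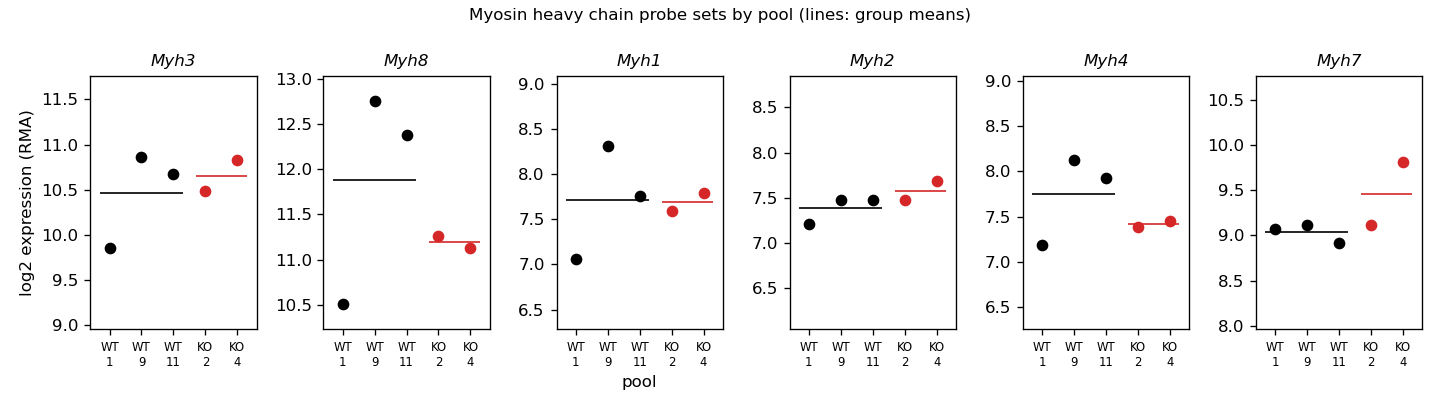
Log2 level of the 6 myosin heavy chain probe sets in each pool, with WT in black, KO in red and horizontal lines at the group means, on vertical axes that span the same number of log2 units. Myh8 spreads over 2.24 among the pools with both KO pools near WT pool 1, Myh3 has KO pool 4 level with WT pool 9, and Myh7 is high in KO pool 4 alone.

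The developmental and fast myosin genes are neighbours. In the RefSeq annotation of GRCm38.p6, Myh3, Myh2, Myh1, Myh4 and Myh8 follow each other in this order on chromosome 11, with no other protein-coding gene between them, while Myh7 lies on another chromosome. The promoters of Myh3, Myh8 and Myh4 are printed because these members of the cluster differed in their readings, and those of the fast light chain gene Mylpf and of Chrna1 because their short windows hold the E-box CAGCTG, the type of site that the myogenic factors bind. Each line gives the 110 bases before the RefSeq start, 5′ to 3′ on the gene's strand, in lower case. Capitals mark the motif TATAAA, the motif CAGCTG described above, a MEF2 box or a CArG box. The MEF2 box is the site of the MEF2 factors and the CArG box that of serum response factor.
Myh3 (GRCm38.p6, chr11:67078190-67078299, plus strand): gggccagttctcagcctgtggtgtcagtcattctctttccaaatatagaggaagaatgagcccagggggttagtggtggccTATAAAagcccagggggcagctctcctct
Myh8 (GRCm38.p6, chr11:67277014-67277123, plus strand): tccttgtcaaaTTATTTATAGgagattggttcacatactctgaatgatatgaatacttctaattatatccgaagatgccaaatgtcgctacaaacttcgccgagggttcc
Myh4 (GRCm38.p6, chr11:67237702-67237811, plus strand): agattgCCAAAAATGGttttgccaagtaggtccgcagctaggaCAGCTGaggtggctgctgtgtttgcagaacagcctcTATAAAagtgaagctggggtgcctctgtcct
Mylpf (GRCm38.p6, chr7:127211498-127211607, plus strand): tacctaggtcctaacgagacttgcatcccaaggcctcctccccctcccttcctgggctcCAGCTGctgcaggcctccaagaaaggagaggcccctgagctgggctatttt
Chrna1 (GRCm38.p6, chr2:73580339-73580448, minus strand): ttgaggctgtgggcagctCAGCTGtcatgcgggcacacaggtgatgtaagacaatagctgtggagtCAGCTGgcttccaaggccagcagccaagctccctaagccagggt

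In Myh3 and Myh4 a TATAAA begins 29 and 31 bases before the start. The Myh8 window has a MEF2 box 99 bases before the start, which overlaps a TATAAA read on the opposite strand, and Myh4 has a CArG box at 104 bases and CAGCTG at 67. Mylpf has CAGCTG at 51 bases, and Chrna1 has it at 92 and 44. The RefSeq promoter table, with 250 bases before and 50 after each start, held 36 promoters of 31 members. Actn3, Myom2, Neb, Tnni2 and Tnnt3 had no entry. Over these 300 bases and both strands, CAGCTG was found in 41.7% of the members' promoters and in 16.3% of all 32851 promoters, and a MEF2 box in 19.4% and 3.19%. A CArG box was found in 8.33% (Acta1, Myh4 and Myom1) against 1.63%, and TATAAA in 9 of 36 promoters against 13.6%. These are matches of letters in a short window, and no binding was measured.

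Among the fast isoforms, 12 of 13 members were lower in KO and 1, Myh2, was higher, with a median log2 fold change of -0.57 and 0 called. Under median centring the fast median was -0.51 and under quantile normalisation -0.60, while against WT pool 1 alone it was 0.46. Tnnc2 is the calcium-binding troponin C of fast fibres. It stood at 10.77, 12.86 and 12.65 in the WT pools and at 11.11 and 11.43 in the KO pools. The KO pools were nearer to WT pool 1 than to the other WT pools. Its log2 fold change of -0.82 (SE 0.37, limma adjusted p = 0.311) was the most negative of all members.

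Mylpf, the fast regulatory light chain, read 10.33, 12.05 and 11.90 in WT and 10.54 and 10.82 in KO. Tnni2, the inhibitory troponin of fast fibres, read 10.42, 12.31 and 12.04 in WT and 10.74 and 11.02 in KO. Both thus repeated the order of Tnnc2, with log2 fold changes of -0.75 (SE 0.32, limma adjusted p = 0.287) and -0.71 (SE 0.34, adjusted p = 0.344). Atp2a1, the calcium pump of the fast sarcoplasmic reticulum, had the widest spread of the members, from 9.70 in WT pool 1 to 11.99 in WT pool 9, a 4.86-fold difference. WT pool 11 stood at 11.68 and KO pools 2 and 4 at 10.46 and 10.59. Pvalb, the calcium buffer parvalbumin of fast fibres, had one of the narrowest, with 7.31, 8.10 and 7.71 in WT and 7.49 and 7.57 in KO. Like Myh2 and Myh4 it had a mean below the 25th percentile of all probe set means.

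In the other fast members too both KO pools lay between WT pool 1 and WT pools 9 and 11. Mybpc2, the fast myosin-binding protein C, was 1.56-fold lower in KO (log2 fold change -0.64, SE 0.31). Actn3, the alpha-actinin of fast Z-discs, was at -0.59 (SE 0.30). Tnnt3, the fast tropomyosin-binding troponin, was at -0.57 (SE 0.31), Casq1, the fast calsequestrin, at -0.36 (SE 0.36), and Myl1, the fast essential light chain, at -0.19 (SE 0.25). None of these passed (limma adjusted p from 0.353 for Mybpc2 to 0.716 for Myl1). Casq1 was 4.02-fold higher in WT pool 9 than in WT pool 1. Mybpc2 and Actn3, with Myh8, were the 3 members in which KO pool 4 was below KO pool 2.

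The slow isoforms were split, with 4 of 7 members higher in KO, 3 lower and 0 called, and a median of 0.05. Median centring put it at 0.11 and quantile normalisation at 0.05. It depended on single pools: it was -0.29 with 6 of 7 lower without WT pool 1, -0.19 with 5 of 7 lower without KO pool 4, and 0.435 with 6 of 7 higher against WT pool 1 alone. Tnnc1, the troponin C of slow and heart muscle, read 8.99, 9.41 and 9.51 in WT and 9.07 and 9.71 in KO, so that KO pool 4 was above every WT pool. Casq2, the calsequestrin of slow and heart muscle, read 9.38, 10.44 and 10.54 in WT and 10.13 and 10.25 in KO. In Casq2 WT pool 1 stood well below the other 4 pools, as in Myh3. Mybpc1, the slow myosin-binding protein C, read 9.50, 11.26 and 11.08 in WT and 10.14 and 10.45 in KO, and so had the order of the fast genes. Its log2 fold change was -0.31 (SE 0.32), against 0.09 for Tnnc1 (SE 0.20) and 0.07 for Casq2 (SE 0.25).

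Tnni1, the slow inhibitory troponin, was at 0.05 (SE 0.22) and Tnnt1, the slow tropomyosin-binding troponin, at -0.07 (SE 0.21). Myl2, the regulatory light chain of slow fibres and of the heart ventricle, was at -0.40 (SE 0.21, limma adjusted p = 0.398), and its lowest reading was KO pool 2 (7.99), below WT pool 1 (8.33). All 7 slow members were higher in KO pool 4 than in KO pool 2, by a median of 0.44. For the fast members this median was 0.19, with 11 of 13 higher in KO pool 4.

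A pair of isoforms mark immature or heart muscle outside the heavy chains. Myl4, the essential light chain of embryonic muscle and of the heart atrium, read 10.55, 11.82 and 12.09 in WT and 10.77 and 11.39 in KO. Tnnt2, the cardiac troponin T that embryonic skeletal muscle also makes, read 9.36, 10.46 and 10.35 in WT and 9.58 and 9.99 in KO. In both, KO pool 2 was close to WT pool 1 and KO pool 4 lay between it and the higher WT pools. Their log2 fold changes were -0.40 (SE 0.30) and -0.27 (SE 0.25), and neither passed (limma adjusted p = 0.553 and 0.622).

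The class called shared holds the 12 genes not assigned here to a fast, slow, cardiac, or embryonic and neonatal isoform. Whether each of them is made in all fibre types was not tested. In 11 of the 12, all but Myom3, both KO pools lay between WT pool 1 and WT pools 9 and 11. Of the 12 members 10 were lower in KO and 2 higher, with 0 called and a median of -0.25 (-0.20 under median centring and -0.26 under quantile normalisation). The median turned to 0.10, with 4 of 12 lower, without WT pool 9, and to 0.63, with 0 of 12 lower, against WT pool 1 alone. Ttn, the giant spring protein titin, read 9.63, 11.60 and 11.07 in WT and 10.45 and 10.68 in KO. Myom2, a myomesin of the M-band, read 8.27, 10.46 and 9.96 in WT and 9.07 and 9.18 in KO, and Myom3, its relative, only 8.30, 8.76 and 8.52 in WT and 8.46 and 8.61 in KO. Myom2 spanned 2.19 and Myom3 0.46, the widest and narrowest spreads of the shared genes. The log2 fold changes were -0.20 for Ttn (SE 0.34), -0.44 for Myom2 (SE 0.37) and 0.01 for Myom3 (SE 0.18).

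Acta1, the actin of the skeletal thin filament, was at -0.34 (SE 0.24), and Ckm, the muscle creatine kinase, at -0.40 (SE 0.29). Acta1 ranged from 12.81 in WT pool 1 to 13.88 in WT pool 9, and Ckm from 11.88 in WT pool 1 to 13.34 in WT pool 11. Actn2, the alpha-actinin of all Z-discs, was at -0.35 (SE 0.32), Myom1 at -0.19 (SE 0.27), and Neb, the ruler of the thin filament, at -0.10 (SE 0.31). None of the 5 passed (limma adjusted p from 0.534 to 0.880). Neb was the member with the largest difference from WT pool 1 alone, at 0.97.

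Of the shared genes, Cacna1s had the highest log2 fold change and the regulator Myog the lowest. Cacna1s, the voltage sensor of the T-tubule, ranged from 7.76 in WT pool 1 to 8.67 in WT pool 9 and was at 0.01 (SE 0.22). Chrna1, the alpha subunit of the muscle acetylcholine receptor, ranged from 7.28 in WT pool 1 to 8.71 in WT pool 9 and was at -0.11 (SE 0.28). Ryr1, the calcium release channel, was at -0.31 (SE 0.30). Myog, for myogenin, the factor that drives myoblasts to differentiate, was at -0.45 (SE 0.25, limma adjusted p = 0.423), and its KO values of 7.68 and 7.97 lay below WT pools 9 and 11 (8.62 and 8.69) and above WT pool 1 (7.52).

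**Figure D3:**
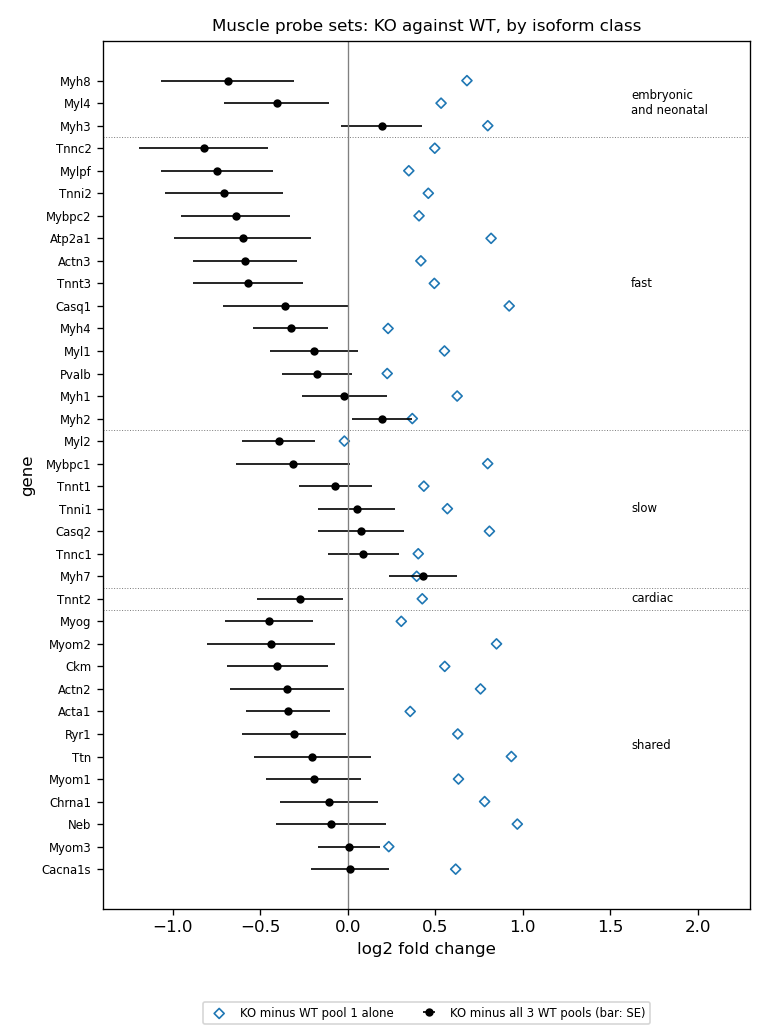
Log2 fold change of each member, KO minus the mean of the 3 WT pools (black, bars are the standard error from limma) and KO minus WT pool 1 alone (blue diamonds), grouped by isoform class. In the black points 12 of 13 fast members and 3 of 7 slow members lie below 0, while 35 of 36 blue diamonds lie above 0, the exception being Myl2.

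The classes differed in how far each pool departed from the others. Relative to WT pool 1, the fast members were higher by a median of 1.64 in WT pool 9 and 1.44 in WT pool 11, but by 0.36 in KO pool 2 and 0.60 in KO pool 4. For the slow members the same medians were 0.64, 0.77, 0.31 and 0.74, so the median of KO pool 4 lay between those of WT pools 9 and 11. The embryonic and neonatal members gave 1.28, 1.54, 0.63 and 0.85, and the shared ones 1.44, 1.21, 0.56 and 0.72. Set against WT pool 9, KO pool 4 was lower by a median of 1.07 in the fast class (-1.07) and of 0.18 in the slow class (-0.18). These medians describe 1 pool each and were not tested.

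The balance within 7 pairs of related isoforms, chosen after the values were seen, also differed between pools. Each pair is the log2 difference of a fast and a slow relative, or of Myh8 and Myh3, taken relative to that in WT pool 1. The Myh8 to Myh3 balance was 1.24 in WT pool 9 and 1.05 in WT pool 11, against 0.12 in KO pool 2 and -0.36 in KO pool 4. For Tnnc2 to Tnnc1 it was 1.66 and 1.35 in WT and 0.25 and -0.06 in KO. For Tnni2 to Tnni1 it was 1.25 and 0.70 in WT and -0.03 and -0.19 in KO, the only pair in which both KO pools lay below all 3 WT pools. In 6 of 7 pairs, all but Mybpc2 to Mybpc1, both KO pools lay below WT pools 9 and 11. How often other pairs of probe sets do so was not computed. The KO minus WT difference of the 7 pairs ran from -0.33 for Mybpc2 to Mybpc1 to -0.91 for Tnnc2 to Tnnc1. The log2 difference was thus lower in the KO mean in each pair. Its SD over the WT pools was 0.49 to 0.88 in the same 6 pairs. In Mybpc2 to Mybpc1 the SD was 0.07 over the WT pools and 0.40 over the KO pools. WT pool 1, at 0 in every pair, was closer to both KO pools than WT pools 9 and 11 were, except in Mybpc2 to Mybpc1, where the 3 WT pools were close together, and in Mylpf to Myl2, where KO pool 2 stood at 0.54 between 0 and the 1.10 of WT pool 9. The pairs share the same 5 arrays and are not independent of each other, and whether the paired probe sets respond alike to RNA level was not tested.

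**Figure D4:**
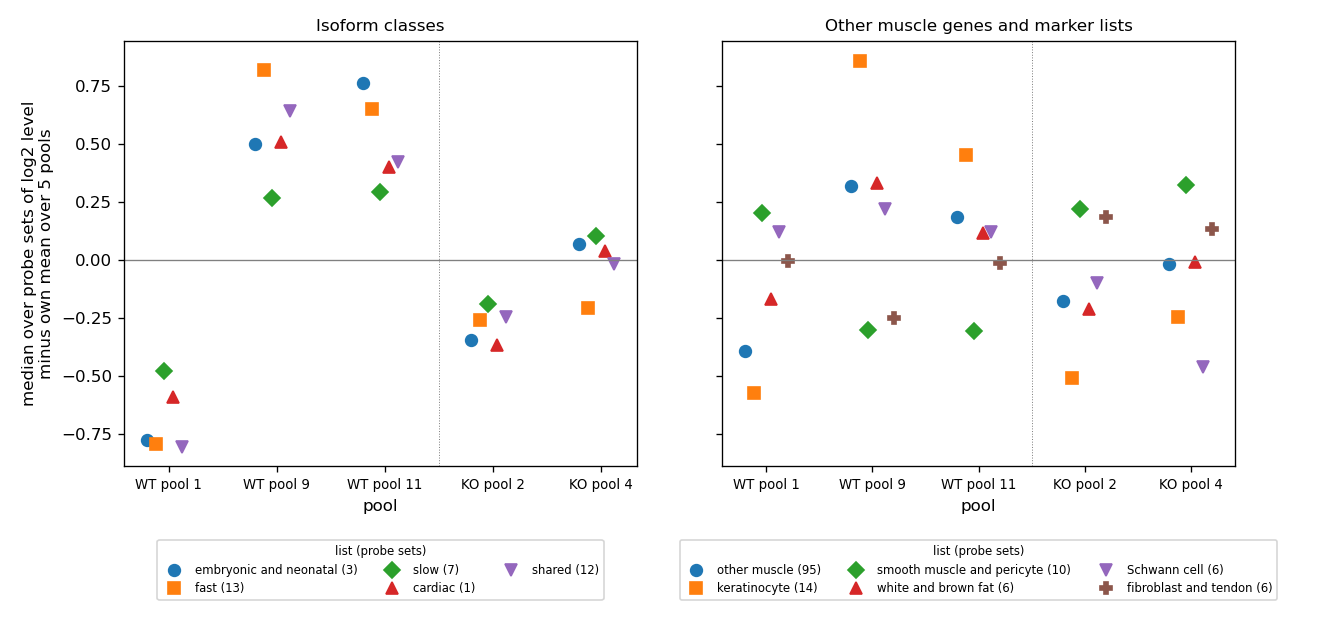
Median over probe sets of the log2 level minus the probe set's own mean, by pool, for the isoform classes (left) and for other muscle genes and marker lists (right), with the number of probe sets in brackets. The fast class goes from -0.79 in WT pool 1 to 0.82 in WT pool 9, the slow class only from -0.48 to 0.27, and the keratinocyte list is highest in WT pools 9 and 11 while the smooth muscle list is lowest there.

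Other genes of muscle, listed by role, mostly had the same order, with a median spread of 0.795 against 1.44 for the members. Over 95 probe sets of 94 genes, 73 were lower in KO and 22 higher, with 0 called and a median of -0.18, or 0.30 against WT pool 1 alone. WT pool 1 was lowest in 76 of them and WT pools 9 and 11 highest in 74. Both KO pools lay between these WT pools in 62 of 95, but in only 2 of 6 endplate and 3 of 7 membrane complex genes. Trdn of the T-tubule list, named for its spread, spanned 2.46, more than any member. Of 27 probe sets for the Z-disc, thin filament and intermediate filament, 18 were lower and 9 higher. Among them Myoz1, a Z-disc partner of calcineurin in fast fibres, was at -0.78 (SE 0.35, limma adjusted p = 0.309), and Smpx, a small muscle protein of the X chromosome, at -0.67 (SE 0.35). Of 17 genes listed under energy metabolism 16 were lower, and the list also held Lrrc39, Art1 and Art3, which have other roles. The largest differences were in Cox8b, a muscle and brown fat subunit of cytochrome oxidase (-0.86, SE 0.36, limma adjusted p = 0.269), and Pgam2, the muscle phosphoglycerate mutase (-0.62, SE 0.30).

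All 15 genes of the T-tubule and reticulum were lower in the KO mean (50.2% of the table), but 14 of them were higher in KO against WT pool 1 alone. In the comparison with all WT pools Srl, for sarcalumenin, was at -0.51 (SE 0.30) and Cacng1, a subunit of the voltage sensor, at -0.50 (SE 0.28). Among 11 genes of the thick filament and protein folding 9 were lower, with the myosin light chain kinases Mylk2 and Mylk4 at -0.53 (SE 0.25) and -0.51 (SE 0.27). By list, the median was -0.34 for energy metabolism, -0.30 for the thick filament and -0.19 for the T-tubule and reticulum. It was -0.09 for the Z-disc list, -0.11 for the endplate and -0.06 for the membrane complex. Of 13 regulatory and fusion genes 9 were lower, with a median of -0.065, and Myf6 was at -0.33 (SE 0.22) and Mef2c at 0.30 (SE 0.17). Of 6 endplate genes 3 were lower, with Ache, the acetylcholinesterase, at -0.31 (SE 0.23) and Rapsn, the receptor anchor, at -0.29 (SE 0.18). Of 7 membrane complex genes 4 were lower, with Sgcd, a sarcoglycan, at 0.34 (SE 0.17) and Cav3, the muscle caveolin, at -0.32 (SE 0.20). In limma 0 of the genes on these lists passed, and 5 of 95 probe sets had unadjusted p below 0.05, against 14.3% of the table. These were Cox8b, Myoz1 and Mylk2, lower in KO, and Pdlim3 (0.47, unadjusted p = 0.0152) and Ankrd1 (0.38, unadjusted p = 0.0362), higher in KO and named for their p after the values were seen.

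Markers of other tissues moved across the same pools. Of 16 listed keratinocyte genes 14 were measured, and their mean was 7.47, 9.33 and 8.77 in the WT pools and 7.54 and 7.81 in the KO pools. Among them 13 had WT pools 9 and 11 as the highest pair, and Krt1, a keratin of the upper epidermis, read 7.22, 11.87 and 10.48 in WT and 7.21 and 7.66 in KO. All 14 were lower in the KO mean (50.2% of the table), 7 of them with unadjusted p below 0.05 (14.3% of the table) and 0 past limma's adjusted threshold. Against WT pool 1 alone all 14 were higher in KO, by a median of 0.20. The 6 of 10 fat cell genes measured averaged 7.04, 7.53 and 7.38 in WT and 6.99 and 7.19 in KO. The smooth muscle and pericyte list went the other way in its mean, with 7 genes higher in KO and 3 lower (Smtn at -0.48, Cspg4 at -0.29 and Mcam at -0.14). Against WT pool 1 alone 3 of 10 were higher. The 10 of 11 genes measured averaged 10.67, 10.06 and 9.89 in WT and 10.54 and 10.55 in KO, and Myh11, the smooth muscle myosin with the largest difference of the list, read 10.32, 9.29 and 8.47 in WT and 10.17 and 10.52 in KO. Heart muscle had 2 of 11 listed markers measured, Nkx2-5 (8.46 to 8.76 over the pools) and Tbx5 (6.39 to 6.77). The part of any of these tissues in the muscle values was not tested.

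The nerve's own glia showed another order. The 6 of 12 Schwann cell markers measured (Mbp, Mag, Cnp, Sox10, Erbb3 and Egr2) had a mean of 12.18, 12.38 and 12.24 in the WT pools and of 11.92 and 11.53 in the KO pools. WT pool 1, the lowest pool for the muscle genes, was thus close to the other WT pools in these markers. All 6 were lower in the KO mean (50.2% of the table). Egr2 and Mag passed limma's threshold (adjusted p = 0.0181 and 0.0166) and the other 4 did not. Of all probe sets 0.676% passed. Egr2 passed in 3 and Mag in 4 of the 13 alternatives, neither of them under median centring or quantile normalisation, with adjusted p from 0.00301 to 0.857 for Egr2 and from 0.000714 to 0.857 for Mag. The 6 of 10 fibroblast and tendon genes measured averaged 10.95, 10.64 and 10.83 in WT and 11.31 and 11.30 in KO, and 1 gene passed, the proteoglycan gene Kera (log2 fold change 1.99, limma adjusted p = 5e-05). Kera passed in 5 of the 13 alternatives (lowest limma adjusted p = 5.85e-11). It did not pass under median centring (limma adjusted p = 0.098) or quantile normalisation (0.125). The other 5 genes ran from -0.04 for Scx to 0.45 for Lum.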

How the data were processed

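Per the submitters' processing notes, the authors made the deposited log2 values with RMA, which corrects background, normalises between arrays and summarises probes per probe set. Which version of RMA was run is not given in these sources. In every probe set of the table the fourth value, counted upwards from the lowest, exceeded the lowest by at least 0.175. Genes with little spread are therefore not analysed here, and every member had to vary. Probe sets were named from the platform annotation of 2016: 9411 had 1 symbol, 384 several (not named) and 566 were not listed.

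KO was compared with WT by limma 3.58.1 in R 4.3.3 (lmFit, eBayes, two-sided, no covariates) on all 10361 probe sets of the 5 arrays, with Benjamini-Hochberg adjustment and a threshold of 0.05. There were 3 residual degrees of freedom (17.4 prior), and the procedure was tested on simulated data. The number of arrays limits the precision. Nothing states that pools came from separate litters, so p-values cover only the differences among the 5 pools, and those may be partly technical. Isoform classes and muscle gene lists came from textbook roles. Members, lists and alternatives were chosen with earlier results of these data known, so lists are described by counts and medians. Pool values are given for all Myh genes and, in each other class, for the 2 members of widest range, the narrowest, and those with unadjusted p below 0.05. From each further muscle list the 2 largest changes are named, and every member is named. Alternatives were median centring, quantile normalisation, 3 other variance settings, a filter on means below the 25th percentile, leaving out each pool, and WT pool 1 as the only reference. Promoters come from RefSeq (GRCm38.p6).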

Additional observations from a re-analysis of the deposited data

How the results depend on the processing

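The count of called members stayed at 0 under each of the 13 alternatives, but this 0 is not informative in all of them. Fits without KO pool 2, without KO pool 4 or against WT pool 1 rest on 1 pool of a genotype. Nothing in the table was called in them, so they cannot decide whether members differ. In the other alternatives the members' lowest adjusted p ran from 0.0692, without WT pool 1, to 0.831, without WT pool 9. Over all probe sets the calls there ran from 0, without moderation, to 158, with an intensity trend, beside 70 in the report. Without moderation 498 had unadjusted p below 0.05. Median centring left 1 call, quantile normalisation 1, and leaving out WT pool 9 also 1. With so few calls or none, the 0 of the members says little under those settings. No paired analysis was possible because the genotypes share no replicate numbers.

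Members past 1.5-fold numbered 7, against 4 under median centring and 15, all higher in KO, with WT pool 1 as the only WT pool or with WT pools 9 and 11 as a block. Leaving out 1 pool gave 0 (without WT pool 9 or 11) to 22 (without WT pool 1). In both fits against WT pool 1 the medians became 0.54 for all members, 0.63 for shared, 0.46 for fast, 0.435 for slow, 0.68 for embryonic and neonatal, and 0.426 for Tnnt2, the 1 cardiac member. Leaving out 1 pool gave medians from -0.66 to 0.01 for all members, -1.09 to -0.17 for fast, -0.29 to 0.19 for slow, -0.73 to 0.10 for shared, -0.87 to -0.09 for embryonic and neonatal, and -0.62 to -0.07 for Tnnt2. The fast class was at its lower end without WT pool 1 and at its upper end without WT pool 9. The cause of these shifts was not tested. The filter on means left 33 members, without Myh2, Myh4 and Pvalb.

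Of the single members, 27 changed sign in both fits against WT pool 1: Acta1 (0.357), Actn2 (0.759), Actn3 (0.418), Atp2a1 (0.82), Casq1 (0.923), Chrna1 (0.78), Ckm (0.55), Mybpc1 (0.80), Mybpc2 (0.41), Myh1 (0.63), Myh4 (0.23), Myh8 (0.68), Myl1 (0.553), Myl4 (0.53), Mylpf (0.349), Myog (0.306), Myom1 (0.633), Myom2 (0.85), Neb (0.97), Pvalb (0.23), Ryr1 (0.629), Tnnc2 (0.50), Tnni2 (0.46), Tnnt1 (0.435), Tnnt2 (0.426), Tnnt3 (0.495) and Ttn (0.94). Myh1 also did so under median centring (0.04) and quantile normalisation (0.026). Leaving out 1 pool changed the sign in 18 members, whose values then ran from -0.29 to 0.17 for Cacna1s, -0.998 to 0.0055 for Casq1, -0.29 to 0.28 for Casq2, -0.55 to 0.16 for Chrna1, -0.87 to 0.0075 for Mybpc1, -0.34 to 0.28 for Myh1, -0.11 to 0.39 for Myh3, -0.56 to 0.0515 for Myl1, -0.61 to 0.12 for Myom1, -1.08 to 0.0085 for Myom2, -0.11 to 0.12 for Myom3, -0.63 to 0.22 for Neb, -0.38 to 0.0215 for Pvalb, -0.77 to 0.0775 for Ryr1, -0.23 to 0.41 for Tnnc1, -0.21 to 0.27 for Tnni1, -0.32 to 0.062 for Tnnt1 and -0.77 to 0.21 for Ttn. No member changed sign under the other variance settings or the filter on means.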
